A study of Homo sapiens with 16 samples.

Results

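The 10 genes described here are the core of the BCL2 family, taken by their symbols from a table of 42351 genes. They are the survival genes BCL2, BCL2L1 and MCL1, the BH3-only genes BCL2L11, BBC3, PMAIP1, BMF and BIK, and the effectors BAX and BAK1, and all 10 passed the expression filter. PolyA RNA was sequenced from A549, a lung adenocarcinoma line that the labels give as wt MET, and from NCI-H596, a lung adenosquamous carcinoma line whose MET lacks exon 14 (MET∆14). Serum was withdrawn from both lines, and hepatocyte growth factor (HGF), the ligand of MET, was absent (0 h) or present for 3, 6 or 12 h. Each of the 8 conditions had 2 replicates, which the study calls biological, for 16 libraries in all. Each MET status is a single line, so that MET status and line cannot be told apart, and serum-deprived cells without HGF were sampled at 0 h only, so that HGF and time without serum cannot be told apart. The labels give 12 h of serum deprivation and the methods of the study a longer time. The study's text names EKVX as its wt MET line, and the table heads the columns of this line H549. The libraries are named here as their titles name them.

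BCL2 family proteins control the permeability of the outer mitochondrial membrane. BAX and BAK1 form pores that release cytochrome c, the survival proteins hold them and the BH3-only proteins in check, and the BH3-only proteins, made in response to loss of growth factors, damage or stress, bind the survival proteins and free or activate the effectors. In epithelial cancer cells, receptor tyrosine kinases are known to act on this balance through AKT, which keeps FOXO factors out of the nucleus, and through ERK, which marks BIM, the product of BCL2L11, for degradation. RNA levels do not report on the latter step.

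Total counts ranged from 13226488 to 21970052 per library in A549 and from 10158590 to 23909304 in NCI-H596. CDKN2A, whose locus is deleted in A549, had 0 counts in all A549 libraries and at least 1466 in NCI-H596, and its neighbour MTAP had 5 to 23 against 883 to 3141. The epithelial keratins KRT8 and KRT18 were at or above 358 CPM (counts per scaled library size) in every library, whereas EPCAM was between 0.868 and 2.97 CPM in A549. KRT19, another epithelial keratin, was at 26.7 to 53.1 CPM in A549 and 931 to 1754 in NCI-H596. The squamous markers KRT5 and TP63 reached at least 1743 and 96.5 CPM in every NCI-H596 library and at most 0.242 and 2.56 in A549. Of the leukocyte markers, PTPRC, CD3E and LYZ stayed at or under 0.163 CPM, and of the fibroblast markers COL1A2, DCN and LUM at or under 0.202, whereas CD68 (34.3 to 154) and, in NCI-H596, COL3A1 (170.1 to 328) were present. COL1A1, another fibroblast marker, was at 10.8 to 19.0 CPM in A549 and 15.9 to 33.3 in NCI-H596. The 12 h NCI-H596 replicates stood apart from each other, with a chi-square of their counts of 36.1 per degree of freedom, against 2.85 to 10.4 for the other pairs. Values of the 10 members at 12 h in this line are therefore given with each of these libraries left out where that changes a result.

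Each time was compared with 0 h of the same line by edgeR's quasi-likelihood test on counts, with p-values adjusted by Benjamini and Hochberg over the 15067 genes tested, and a gene is called here when its adjusted p is under 0.05. In A549, 2 members were called higher and 1 lower at 3 h, 2 and 2 at 6 h, and 1 and 1 at 12 h. Among all genes tested, 10.3% were called higher and 7.16% lower at 3 h, 16.4% and 17.8% at 6 h, and 16.9% and 18.2% at 12 h. In NCI-H596, 4 members were called higher and 3 lower at both 3 h and 6 h, and 2 and 3 at 12 h, against 15.5% and 16.1% of all genes at 3 h, 21.6% and 22.5% at 6 h, and 18.3% and 20.1% at 12 h. An F test over the 3 times called 5 of 10 members in A549, where 40.3% of all genes were called, and 8 of 10 in NCI-H596, where 54.1% were. The median log2 fold change of the 10 members at 3 h was -0.03 in A549 and 0.28 in NCI-H596, beside -0.04 and -0.05 over all genes tested. The spread was estimated over all 16 libraries together, so the 12 h NCI-H596 pair also entered the tests of A549 and of earlier times. With A549 fitted alone, 27.3% of 13571 genes were called at 3 h in either direction, against 17.4% in the main fit. In bulk RNA, fewer cells that express a gene and less of its RNA per cell cannot be told apart.

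**Figure D1:**
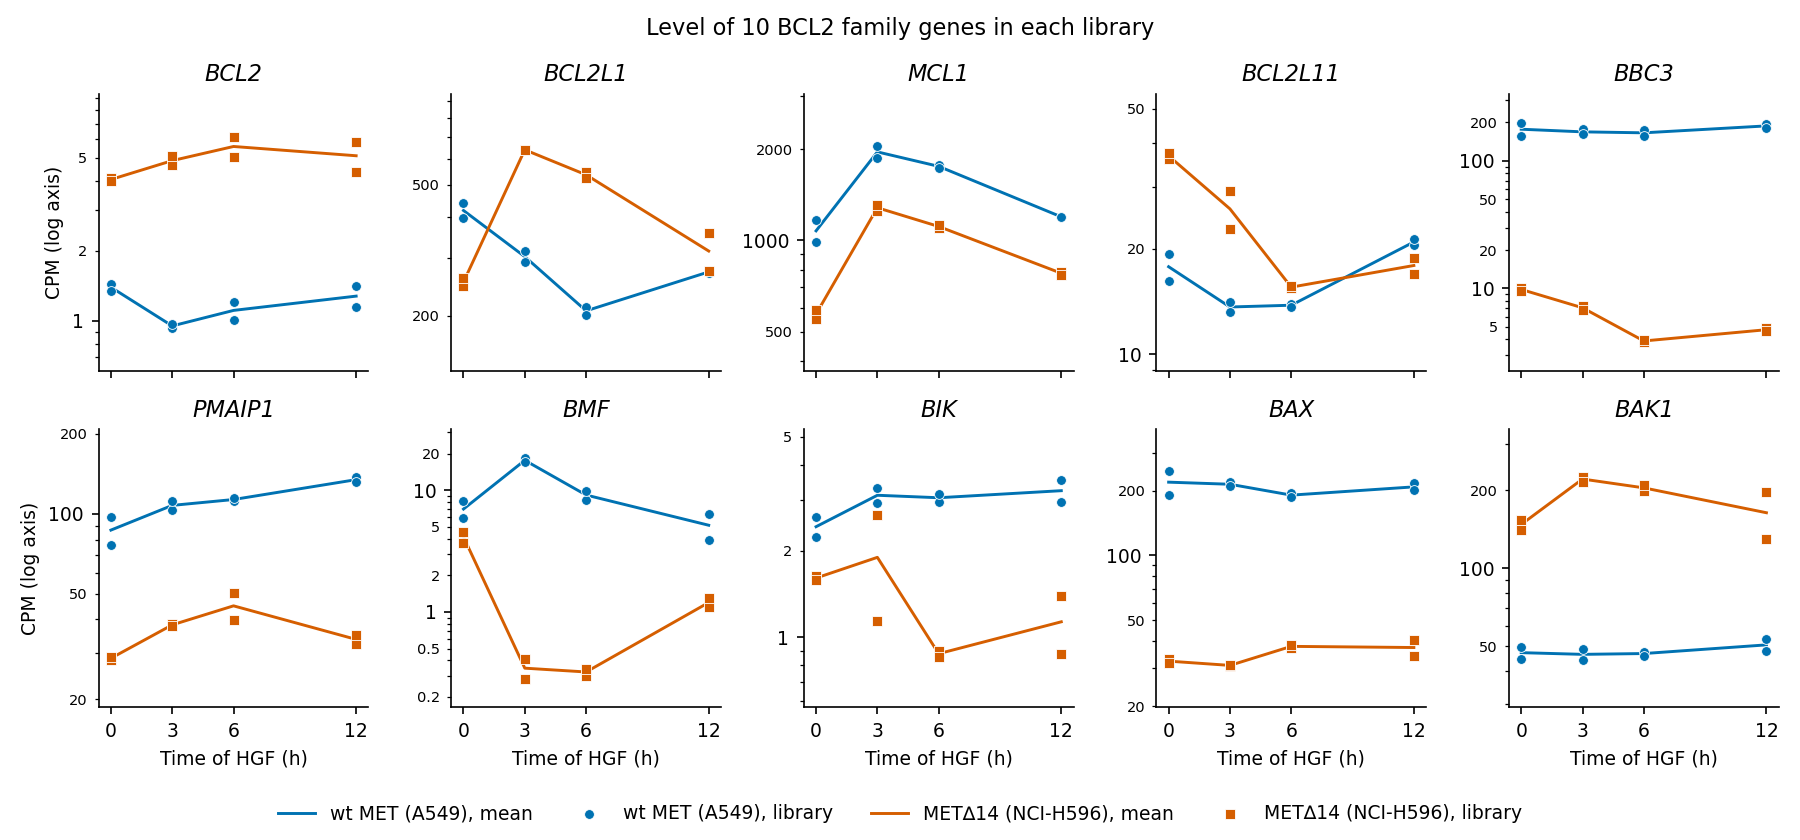
Level of each of the 10 genes in CPM (log axis) against the time of HGF in hours, with a point for each of the 2 libraries per condition and a line through their means. A549 (wt MET) is in blue circles and NCI-H596 (MET∆14) in orange squares; the lines of BCL2L1 cross between 0 h and 3 h, and BMF moves apart from 3 h on.

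The survival genes moved in different ways. BCL2L1, at chr20:31664452-31723989 on the minus strand of hg38, encodes BCL-XL and, by another splice, the shorter BCL-XS, and counts per gene do not separate the splice forms. In A549 its libraries held 397 and 439.5 CPM at 0 h, 314 and 291 at 3 h, 213 and 201 at 6 h, and 274 and 269 at 12 h. In NCI-H596 they held 246 and 260.3 CPM at 0 h, 639.8 and 640.3 at 3 h, 549.1 and 525 at 6 h, and 273 and 356 at 12 h. All 6 treated libraries were below both 0 h libraries in A549 and above both in NCI-H596. In A549 the log2 fold change of BCL2L1 was -0.47 ± 0.11 (SE, n = 2 per condition) at 3 h (adjusted p = 0.0072), -1.02 ± 0.11 at 6 h (adjusted p = 7e-06) and -0.62 ± 0.11 at 12 h (adjusted p = 0.00046). In NCI-H596 it rose by 1.34 ± 0.11 at 3 h (adjusted p = 3.4e-07) and 1.08 ± 0.11 at 6 h (adjusted p = 1.5e-06). Its log2 fold change of 0.31 ± 0.11 at 12 h (adjusted p = 0.033) was 0.09 without replicate 2 of that condition (adjusted p = 0.36) and 0.49 without replicate 1 (adjusted p = 5e-05), and the call was lost in 12 of 22 alternatives. An F test over the 3 times called the difference between the responses of the lines (adjusted p = 6.6e-07), which was 1.81 ± 0.15 on the log2 scale at 3 h, 2.10 ± 0.15 at 6 h and 0.93 ± 0.15 at 12 h, higher in NCI-H596. ABALON, an antisense RNA gene, overlaps 41.3% of the exon bases of BCL2L1, and since the use of strand in the counting is not given, their reads cannot be told apart.

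MCL1 encodes a survival protein with a short half-life, and it rose at 3 h and 6 h in both lines. A549 libraries held 985 and 1164 CPM at 0 h, 1874 and 2042 at 3 h, 1774 and 1735 at 6 h, and 1194 and 1196 at 12 h. NCI-H596 libraries held 552 and 590.0 CPM at 0 h, 1254 and 1308 at 3 h, 1097 and 1125 at 6 h, and 788 and 769 at 12 h. The highest level came at 3 h in each line, and the treated libraries did not overlap with 0 h. The log2 fold change was 0.87 ± 0.09 at 3 h (adjusted p = 1.8e-05) and 0.71 ± 0.09 at 6 h (adjusted p = 5.1e-05) in A549, and 1.17 ± 0.10 (adjusted p = 3.5e-07) and 0.96 ± 0.10 (adjusted p = 1.4e-06) in NCI-H596. At 12 h it was 0.15 ± 0.09 in A549 (adjusted p = 0.23) and 0.45 ± 0.09 in NCI-H596 (adjusted p = 0.0017). A difference between the responses did not pass the F test (adjusted p = 0.21). ADAMTSL4-AS1 overlaps 5.3% of the exon bases of MCL1 on the same strand. In the model with line and time as additive terms, the formula stated by the study, 3 of 10 members were called for time, where 30.6% of all genes were, namely MCL1 (adjusted p = 7e-06), PMAIP1 (adjusted p = 0.019) and BCL2L11 (adjusted p = 0.036).

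BCL2, the founder of the family, was scarce. Its counts lay between 12 and 24 per library in A549 (0.935 to 1.45 CPM) and between 47 and 118 in NCI-H596 (3.97 to 6.14 CPM). The log2 fold changes against 0 h ran from -0.55 ± 0.31 to -0.14 ± 0.28 in A549 and from 0.27 ± 0.21 to 0.46 ± 0.20 in NCI-H596, and none passed the test. Every treated NCI-H596 library (4.36 to 6.14 CPM) was above both of 0 h (4.11 and 3.97 CPM). In A549 the 12 h libraries (1.14 and 1.41 CPM) overlapped with 0 h (1.45 and 1.34 CPM). At these counts, the test did not tell changes of this size from 0.

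Of the 5 BH3-only genes, BCL2L11, BBC3 and BMF fell at all 3 times in NCI-H596. The stretches before their RefSeq starts are shown because these 3 genes moved together there. They come from a table of 35116 human promoters (GRCh38.p14), which holds 8 of the 10 members, are written 5′ to 3′ on the strand of the gene, and end at the start or where an annotated exon of the gene begins. The BCL2L11 window is chr2:111120664-111120913 on the plus strand, in the span of the gene and in no annotated exon. The BBC3 stretch is chr19:47232767-47232917 and the BMF stretch chr15:40108893-40109129, both on the minus strand. Capitals mark the motifs that were found.

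BCL2L11: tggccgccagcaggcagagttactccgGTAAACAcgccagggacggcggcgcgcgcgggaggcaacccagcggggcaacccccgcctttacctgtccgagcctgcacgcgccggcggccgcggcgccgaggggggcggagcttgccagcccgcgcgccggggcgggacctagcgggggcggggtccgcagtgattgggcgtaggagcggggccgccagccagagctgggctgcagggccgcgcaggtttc
BBC3: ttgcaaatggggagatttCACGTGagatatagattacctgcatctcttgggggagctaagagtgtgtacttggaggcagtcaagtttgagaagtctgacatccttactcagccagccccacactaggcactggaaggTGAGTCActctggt
BMF: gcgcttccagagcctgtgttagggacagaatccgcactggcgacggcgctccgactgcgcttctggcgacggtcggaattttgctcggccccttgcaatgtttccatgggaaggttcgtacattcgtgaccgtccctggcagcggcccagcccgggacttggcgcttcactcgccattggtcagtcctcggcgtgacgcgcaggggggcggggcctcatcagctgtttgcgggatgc

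The motifs searched on both strands were the FOXO core GTAAACA, the CArG box of SRF, the CRE TGACGTCA, the AP-1 site TGANTCA, the E-box CACGTG, the ETS core CCGGAAG and the STAT core TTCNNNGAA, in the 250 bases before each start. The capitals in BCL2L11 are a FOXO core 223 to 217 bases before the start, a motif that 2.98% of all promoters in the table held. In BBC3 they are an E-box (6.34% of all promoters) 232 to 227 bases and an AP-1 site (6.57%) 113 to 107 bases before the start. The table gives BMF a second start, with the window chr15:40106967-40107216, which is not shown, and neither BMF window held any of the 7, and no marked motifs overlapped. Among the other members in the table, BCL2 held a CArG box (1.16%) and BAX 4 E-boxes. The CRE (1.65%), the ETS core (8.52%) and the STAT core (6.57%) were found in no member. A match is a description of letters and not a bound site, and promoters of MCL1 and BIK were not analysed here.

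BMF encodes a BH3-only protein that is held at the actin cytoskeleton in attached cells, and at 3 h its level fell in NCI-H596 and rose in A549. In NCI-H596 it had 70 and 75 counts at 0 h (4.56 and 3.73 CPM), 5 and 5 at 3 h (0.407 and 0.283 CPM), 4 and 8 at 6 h (0.299 and 0.343 CPM), and 20 and 14 at 12 h (1.09 and 1.298 CPM). In A549 its levels were 8.10 and 5.94 CPM at 0 h, 18.4 and 17.0 at 3 h, 8.35 and 9.96 at 6 h, and 6.43 and 3.90 at 12 h. Every treated NCI-H596 library was below both 0 h libraries, and in A549 both 3 h libraries were above all others. The log2 fold change in NCI-H596 was -3.59 ± 0.38 at 3 h (adjusted p = 4.6e-06), -3.63 ± 0.36 at 6 h (adjusted p = 1.6e-06) and -1.80 ± 0.30 at 12 h (adjusted p = 0.00028). In A549 it was 1.33 ± 0.21 at 3 h (adjusted p = 0.00047), 0.38 ± 0.22 at 6 h (adjusted p = 0.20) and -0.42 ± 0.23 at 12 h (adjusted p = 0.17). The difference between the responses passed the F test (adjusted p = 2.7e-06) and was -4.92 ± 0.44 at 3 h. The antisense gene BMF-AS1 overlaps 8.5% of its exon bases.

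BCL2L11, which encodes BIM, had 36.0 and 37.5 CPM at 0 h in NCI-H596, 29.2 and 22.8 at 3 h, 15.4 and 15.6 at 6 h, and 18.8 and 17.0 at 12 h. In A549 it had 19.3 and 16.2 CPM at 0 h, 14.1 and 13.2 at 3 h, 13.9 and 13.7 at 6 h, and 20.4 and 21.3 at 12 h. Before HGF the NCI-H596 libraries held the highest levels of all, and at 6 h they were close to those of A549. In NCI-H596 its log2 fold change was -0.51 ± 0.12 at 3 h (adjusted p = 0.0042), -1.24 ± 0.12 at 6 h (adjusted p = 1.3e-06) and -1.03 ± 0.12 at 12 h (adjusted p = 1.5e-05). The call at 3 h was lost without replicate 2 of that condition (-0.34, adjusted p = 0.083). In A549 the log2 fold change was -0.38 ± 0.13 at 3 h (adjusted p = 0.064), -0.36 ± 0.13 at 6 h (adjusted p = 0.044) and 0.23 ± 0.13 at 12 h (adjusted p = 0.17), and the call at 6 h was lost in 15 of 22 alternatives, with DESeq2 among them (adjusted p = 0.097). The responses differed (F test, adjusted p = 0.00014), by -0.88 ± 0.18 at 6 h and -1.26 ± 0.18 at 12 h, while the difference at 3 h was -0.13 ± 0.18 (adjusted p = 0.69). MIR4435-2HG overlaps 10.8% of the exon bases of BCL2L11 on the opposite strand.

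BBC3 encodes PUMA, a p53 target that binds all survival proteins. Its levels in NCI-H596 were 10.2 and 9.49 CPM at 0 h, 7.33 and 6.79 at 3 h, 3.82 and 3.94 at 6 h, and 4.87 and 4.64 at 12 h. In A549 it had 156 and 198 CPM at 0 h, 176 and 161 at 3 h, 174 and 158 at 6 h, and 194 and 182 at 12 h, and the libraries of every treated time lay within the range of 0 h. In NCI-H596 the log2 fold change of BBC3 was -0.48 ± 0.15 at 3 h (adjusted p = 0.021), -1.33 ± 0.16 at 6 h (adjusted p = 7.2e-06) and -1.04 ± 0.16 at 12 h (adjusted p = 0.00012). The call at 3 h was lost when any 1 of the 0 h or 3 h libraries of this line was left out (adjusted p up to 0.14). In A549 the log2 fold changes were -0.07 ± 0.10, -0.09 ± 0.10 and 0.09 ± 0.10, and the responses differed (F test, adjusted p = 0.00024).

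PMAIP1, which encodes NOXA, the partner of MCL1, rose in both lines. A549 libraries held 76.3 and 97.3 CPM at 0 h, 103 and 112 at 3 h, 112 and 115 at 6 h, and 137 and 132 at 12 h. NCI-H596 libraries held 28.2 and 28.9 CPM at 0 h, 38.6 and 37.7 at 3 h, 50.2 and 39.8 at 6 h, and 32.3 and 34.9 at 12 h. The highest mean came at 12 h in A549 and at 6 h in NCI-H596, and no treated library overlapped with 0 h of its line. The log2 fold change in A549 was 0.31 ± 0.11 at 3 h (adjusted p = 0.079), 0.38 ± 0.11 at 6 h (adjusted p = 0.018) and 0.63 ± 0.11 at 12 h (adjusted p = 0.00063). In NCI-H596 it was 0.42 ± 0.12 at 3 h (adjusted p = 0.018), 0.65 ± 0.12 at 6 h (adjusted p = 0.00055) and 0.23 ± 0.13 at 12 h (adjusted p = 0.16). Without replicate 1 of A549 at 0 h, the value of this line at 6 h was 0.22 (adjusted p = 0.21), and the call of NCI-H596 at 3 h was lost when any 1 of its 0 h or 3 h libraries was left out (adjusted p up to 0.099). The F test of the difference was passed (adjusted p = 0.026), but in 10 of 21 alternatives only, and no single time passed its own test of the difference.

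BIK, a BH3-only protein of the endoplasmic reticulum, had 31 to 74 counts per library in A549 and 12 to 47 in NCI-H596. None of its changes against 0 h passed the test, the largest being -0.87 ± 0.36 on the log2 scale at 6 h in NCI-H596 (adjusted p = 0.064). The F test over the 3 times called BIK in NCI-H596 (adjusted p = 0.043), where the 3 h replicates were 1.14 and 2.66 CPM.

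Of the effectors, BAX, which moves from the cytosol to mitochondria, was not called at any time. It lay between 187 and 247 CPM in A549 and between 30.7 and 40.8 CPM in NCI-H596. Its log2 fold changes ran from -0.20 ± 0.11 to -0.03 ± 0.11 in A549 and from -0.06 ± 0.12 to 0.23 ± 0.12 in NCI-H596. BAK1, which resides in the outer mitochondrial membrane, had 153.8 and 141 CPM at 0 h in NCI-H596, 225 and 216 at 3 h, 198 and 210.0 at 6 h, and 129.6 and 197 at 12 h. Both libraries of 3 h and of 6 h were above those of 0 h, and those of 12 h lay on either side of them. BAK1 rose by 0.58 ± 0.14 on the log2 scale at 3 h (adjusted p = 0.0051) and 0.47 ± 0.14 at 6 h (adjusted p = 0.013). Without replicate 2 of 0 h neither call held (adjusted p = 0.059 and 0.11). At 12 h the log2 fold change was 0.15 ± 0.14 (adjusted p = 0.44), -0.19 without replicate 2 of that condition and 0.42 without replicate 1. In A549, BAK1 stayed between 44.1 and 53.2 CPM. The difference between the responses had an adjusted p of 0.056 in the F test, and it was called in 4 of 21 alternatives. BAK1 has processed pseudogenes, with which its reads could have been split in the counting.

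**Figure D2:**
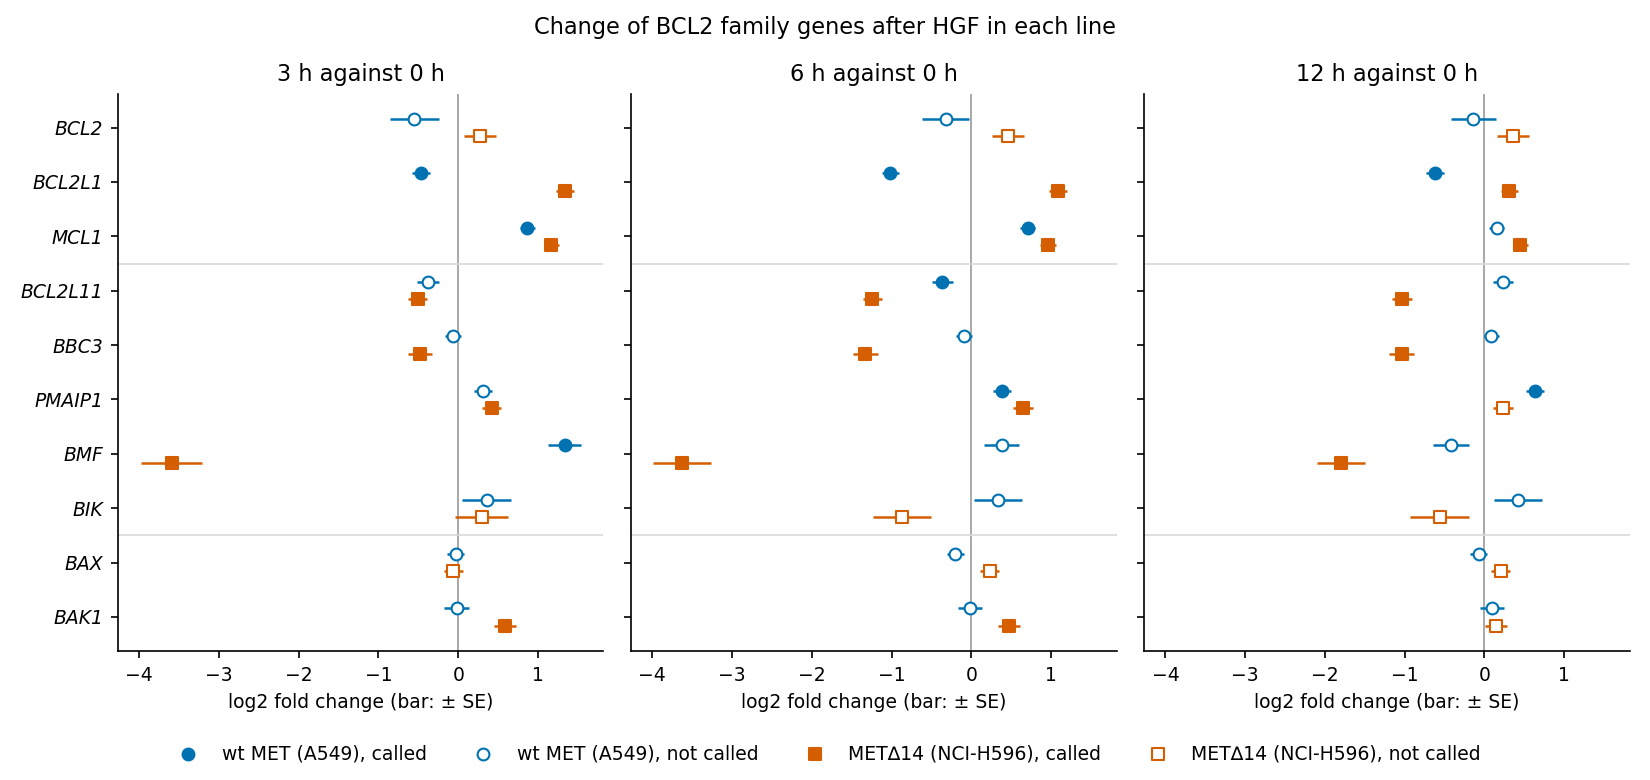
Log2 fold change against 0 h of the same line at 3, 6 and 12 h, with bars of 1 SE; filled symbols are called (adjusted p under 0.05, edgeR) and open ones are not, and grey rules separate survival, BH3-only and effector genes. BCL2L1 lies on opposite sides of 0 in the lines at each time, and BMF in NCI-H596 has the lowest values, -3.59 at 3 h and -3.63 at 6 h.

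The F test of the difference between the lines thus called 5 of 10 members, BCL2L1, BMF, BCL2L11, BBC3 and PMAIP1, against 37.6% of all genes tested. Tested at each time, the difference was called for 2 members at 3 h (BCL2L1 and BMF), where 17.4% of all genes were called, and for 4 at 6 h and 4 at 12 h, BCL2L11 and BBC3 being added to them, where 30.2% and 24.0% were. At 12 h the call of BMF was lost in 4 of 20 alternatives.

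Successive times were compared as well. From 3 h to 6 h in A549, BMF fell by 0.95 ± 0.20 and BCL2L1 by 0.55 ± 0.11 on the log2 scale, which made 2 of 10 members called where 3.10% of all genes were. Each of these calls was lost when any 1 of the 3 h or 6 h libraries of this line was left out (adjusted p up to 0.19). From 6 h to 12 h in A549, 4 were called, against 11.6% of all genes. BCL2L1 (0.39 ± 0.11) and BCL2L11 (0.60 ± 0.13) rose, and BMF (-0.80 ± 0.22) and MCL1 (-0.55 ± 0.09) fell. The call of BCL2L1 was lost in 12 of 22 alternatives (adjusted p up to 0.26), that of BCL2L11 in 3 of 22 and that of BMF in 3 of 21, its value being -0.53 without replicate 2 of A549 at 12 h (adjusted p = 0.23). In NCI-H596, BBC3 (-0.85 ± 0.17) and BCL2L11 (-0.73 ± 0.13) were the 2 members called from 3 h to 6 h, against 9.77% of all genes. From 6 h to 12 h, 4 were called, against 18.6%. BMF rose by 1.82 ± 0.46, and BCL2L1 (-0.77 ± 0.11), MCL1 (-0.51 ± 0.09) and PMAIP1 (-0.42 ± 0.12) fell. BCL2L1 was -0.59 without replicate 1 of NCI-H596 at 12 h and -0.98 without replicate 2, and called in both cases. The call of PMAIP1 was lost in 3 of 22 alternatives, with a value of -0.24 without replicate 1 of NCI-H596 at 6 h (adjusted p = 0.27) and -0.35 without replicate 1 at 12 h (adjusted p = 0.17). That of BMF was lost without either 6 h library (adjusted p = 0.060 and 0.11). The rises of BCL2L1 and MCL1 in NCI-H596 were thus smaller at 12 h than at 6 h.

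Before HGF, 9 of 10 members differed between the lines. In NCI-H596, 3 were called higher and 6 lower than in A549, where 40.6% of all genes were called higher and 39.6% lower. BBC3 had the largest difference, -4.17 ± 0.12 on the log2 scale, followed by BAX with -2.76 ± 0.12 (adjusted p = 1.9e-13 and 8.9e-12). PMAIP1 (-1.60 ± 0.12), MCL1 (-0.91 ± 0.10), BMF (-0.77 ± 0.23) and BCL2L1 (-0.72 ± 0.11) were lower too. BAK1 (1.64 ± 0.15), BCL2 (1.53 ± 0.24) and BCL2L11 (1.05 ± 0.12) were higher in NCI-H596. BIK, at -0.59 ± 0.33, was not called (adjusted p = 0.10). The effectors thus lay in opposite order in the lines, BAX above BAK1 in A549 and BAK1 above BAX in NCI-H596 on the scale of CPM per kilobase. The call of BMF was lost without replicate 1 of A549 at 0 h (-0.53, adjusted p = 0.094) and without replicate 2 of NCI-H596 at 0 h (-0.60, adjusted p = 0.082).

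Levels of different genes were compared as CPM per kilobase of the longest annotated transcript. MCL1 had the highest level of the members in all 8 conditions, 236 ± 27.8 (SD, n = 2) at 0 h and 430.3 ± 26.02 at 3 h in A549, and 125 ± 5.94 and 281.5 ± 8.46 in NCI-H596. At 0 h it was followed in A549 by BAX (161 ± 29.4), BCL2L1 (128 ± 9.28), BBC3 (95.8 ± 15.9) and PMAIP1 (45.7 ± 7.83). In NCI-H596 it was followed by BCL2L1 (77.7 ± 3.10), BAK1 (66.6 ± 4.16), BAX (23.8 ± 0.827) and PMAIP1 (15.03 ± 0.236). BCL2 was lowest in A549, with 0.187 ± 0.00983 at 0 h, and BMF in NCI-H596 after HGF, with 0.0735 ± 0.0187 at 3 h. With the union of exons as the length, BCL2L1 came before BAX in A549 at 0 h. In NCI-H596 at 0 h, BAK1 then came before BCL2L1, and PMAIP1 (13.1) before BAX (12.5). These neighbours thus have no fixed order.

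**Figure D3:**
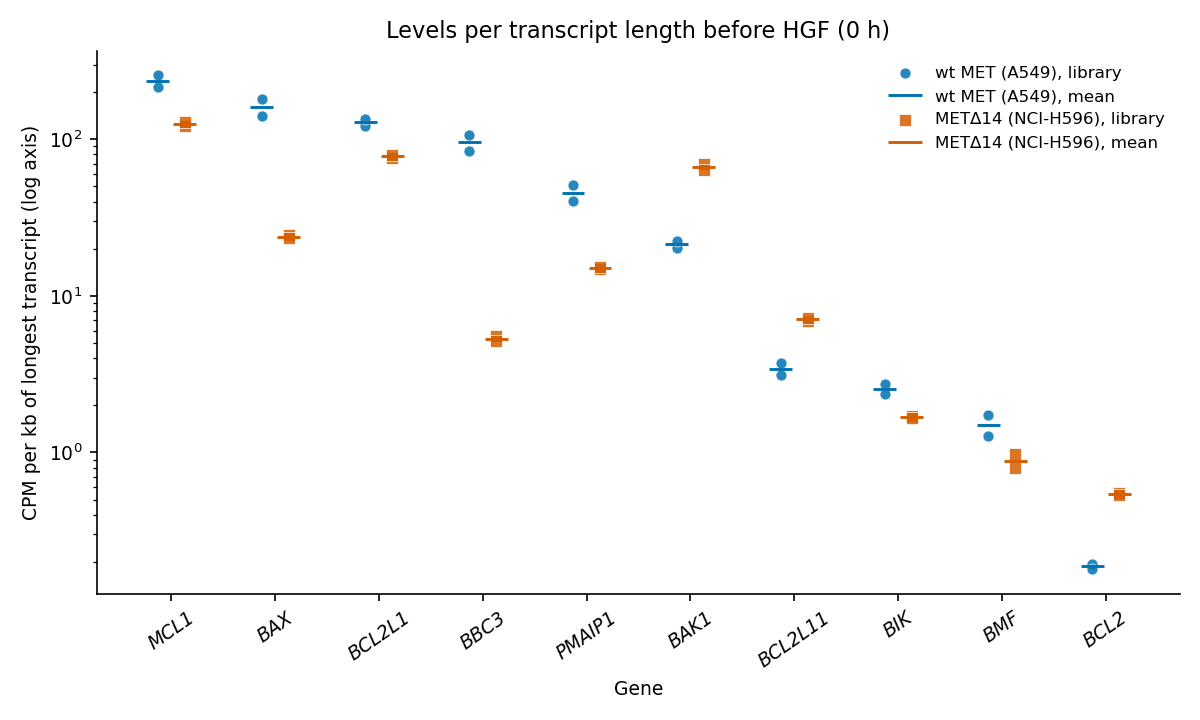
CPM per kilobase of the longest annotated transcript (log axis) of each member at 0 h, with a point for each of the 2 libraries per line and a bar at their mean, in the order of A549 (blue circles) with NCI-H596 in orange squares. BBC3 and BAX are farthest below A549 in NCI-H596, and BAK1, BCL2L11 and BCL2 lie above.

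Summed per kilobase, the 3 survival genes made up 52.5% ± 1.55 (SD, n = 2) of the level of the 10 members in A549 at 0 h, 60.9% ± 1.60 at 3 h, 58.5% ± 0.243 at 6 h and 49.2% ± 0.905 at 12 h. Their share in NCI-H596 was 62.8% ± 1.995 at 0 h, 75.7% ± 0.713 at 3 h, 73.2% ± 0.129 at 6 h and 68.1% ± 3.29 at 12 h. The share of the 5 BH3-only genes was in A549 21.4% ± 0.531 at 0 h, then 18.4% ± 0.542 (3 h), 20.5% ± 0.145 (6 h) and 25.7% ± 0.521 (12 h). For NCI-H596 it was 9.27% ± 0.108, 4.90% ± 0.0905, 5.32% ± 0.685 and 6.40% ± 0.402 in the same order. The mean was lowest at 3 h in both lines, but in NCI-H596 the libraries of 3 h and 6 h overlapped. At 12 h the share was still below 0 h in NCI-H596 and above it in A549. A share also falls where the other classes rise, as MCL1 did at 3 h in both lines. PMAIP1 itself went from 15.03 to 20.1 CPM per kilobase in NCI-H596 and from 45.7 to 56.7 in A549. BCL2L11, BBC3 and BMF fell in NCI-H596. A lower share at 3 h is therefore not a lower summed level of BH3-only RNA. The ratio of BCL2L1 to BCL2L11 counts within a library, which no scaling affects, was 6.84 and 6.94 at 0 h in NCI-H596, 21.9 and 28.1 at 3 h, 35.6 and 33.6 at 6 h, and 14.5 and 21.0 at 12 h. In A549 it was 20.5 and 27.1 at 0 h, 22.3 and 22.1 at 3 h, 15.3 and 14.7 at 6 h, and 13.4 and 12.6 at 12 h. The ratio of MCL1 to PMAIP1 counts within a library rose at 3 h in both lines. In A549 it went from 12.9 and 11.96 at 0 h to 18.2 and 18.2 at 3 h. It was then 15.9 and 15.1 at 6 h, and 8.70 and 9.07 at 12 h. For NCI-H596 it went from 19.5 and 20.4 at 0 h to 32.5 and 34.7 at 3 h. It was then 21.8 and 28.3 at 6 h, and 24.4 and 22.01 at 12 h. At 12 h this ratio was below 0 h in A549 and above it in NCI-H596. These shares and ratios are descriptions of RNA and were not tested. The shares rest on the longest transcript and were not computed with the union of exons. With that length, A549 at 0 h had 84.6 for BAX in place of 161, and 55.5 for BBC3 in place of 95.8. MCL1 had 172.7 in place of 236. The shares, and how far the lines lie apart in them, therefore depend on the length chosen.

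The other genes of the family gave a mean response over the 3 times that was called higher for 1 and lower for 2 of the 11 tested (of 13) in A549, and higher for 2 and lower for 4 in NCI-H596. Among all genes, 17.5% were called higher and 20.1% lower by this mean in A549, and 21.3% and 25.3% in NCI-H596. In A549 the largest changes were those of BAD (-0.49 ± 0.18 on the log2 scale, adjusted p = 0.041), a BH3-only protein that AKT phosphorylates, and BNIP3L (-0.24 ± 0.06, adjusted p = 0.0087), a mitophagy receptor. In NCI-H596 HRK, a BH3-only gene, fell from 36 and 38 counts at 0 h to 3 to 18 counts in the treated libraries (-1.68 ± 0.27, adjusted p = 0.00013). BCL2A1, a survival gene and NF-kappaB target, had 1 and 2 counts at 0 h and 3 to 12 counts per treated library, a ratio of 5.07 of the summed counts per scaled library size with an exact 95% interval of 1.62 to 25.6 that covers counting error only (adjusted p of the mean response = 0.018). The F test of the difference between the lines called 7 of these 11 genes, against 37.6% of all genes, with HRK (adjusted p = 0.0033) and BCL2A1 (adjusted p = 0.019) among them.

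**Figure D4:**
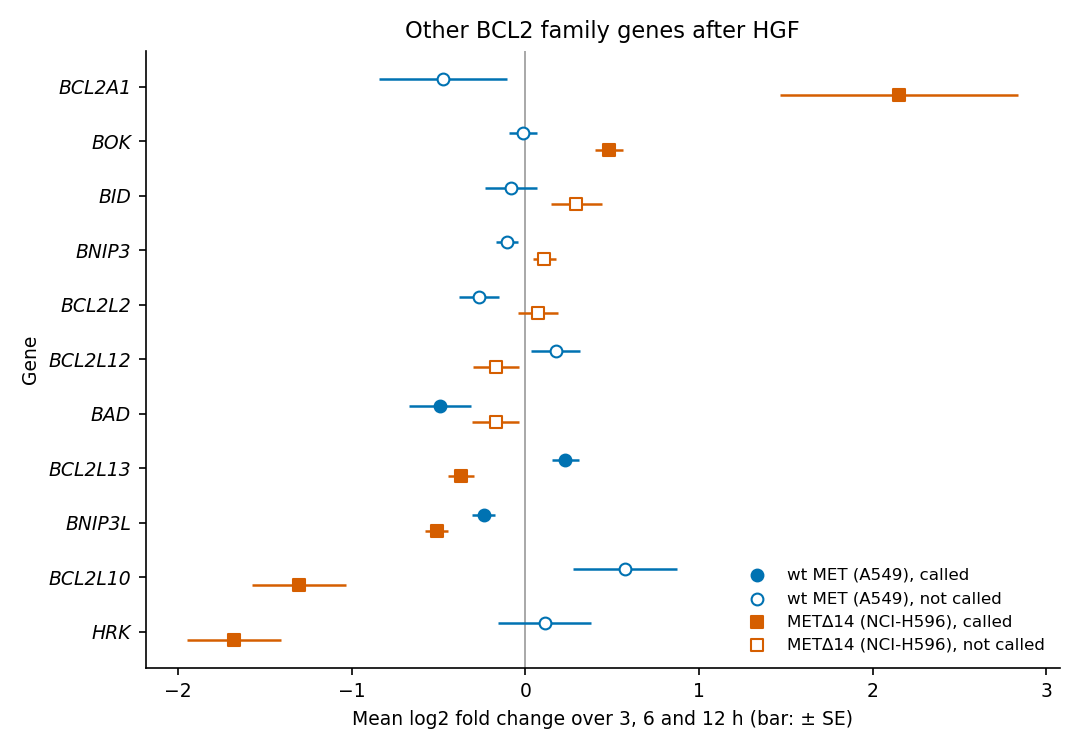
Mean log2 fold change over 3, 6 and 12 h of the 11 other BCL2 family genes tested, with bars of 1 SE, for A549 (blue circles) and NCI-H596 (orange squares); filled symbols are called and open ones are not. HRK (-1.68) and BCL2L10 lie lowest in NCI-H596, and BCL2A1, which had 1 and 2 counts at 0 h there, lies highest with the widest bar.

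Downstream of the mitochondria, all 16 genes of the apoptosome, the caspases and their inhibitors were tested, of which 7 were called higher and 5 lower in A549, and 3 higher and 4 lower in NCI-H596, beside 17.5% higher and 20.1% lower of all genes in A549 and 21.3% and 25.3% in NCI-H596. BIRC5, the mitotic protein survivin, fell in both lines, by 1.22 ± 0.11 on the log2 scale in A549 (adjusted p = 1.5e-06) and by 0.74 ± 0.10 in NCI-H596 (adjusted p = 4e-05). BIRC6 rose by 0.76 ± 0.13 in A549 (adjusted p = 0.0003), and CASP6, an executioner caspase, fell by 0.78 ± 0.14 in NCI-H596 (adjusted p = 0.00026). The F test of the difference called 6 of the 16, a share close to the 37.6% of all genes.

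In the death receptor arm, which joins the family through cleavage of BID by caspase-8, 13 of 14 genes were tested. In A549, 2 were called higher and 4 lower, and in NCI-H596, 5 higher and 6 lower, where the shares of all genes were 17.5% and 20.1%, and 21.3% and 25.3%. The difference between the lines was called for 7 of the 13, against 37.6% of all genes. In A549 TNFRSF1A, the TNF receptor, fell by 0.75 ± 0.08 (adjusted p = 4.4e-06) and the adaptor FADD by 0.49 ± 0.12 on the log2 scale (adjusted p = 0.0042). In NCI-H596 TNFSF10, the ligand TRAIL, went from 168 and 127 CPM at 0 h to 44.2 and 40.5 at 3 h, 15.6 and 23.9 at 6 h, and 26.7 and 39.0 at 12 h (mean log2 fold change -2.29 ± 0.17, adjusted p = 2e-06). No A549 library held more than 2 of its counts. TNFRSF10A, a receptor of TRAIL, went the other way in NCI-H596, from 22.1 and 22.2 CPM to 63.9 and 66.8 at 3 h, 63.6 and 68.9 at 6 h, and 37.7 and 43.6 at 12 h (1.34 ± 0.08, adjusted p = 9.9e-09). The ligand thus fell and its receptor rose in the same libraries.

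Of 9 genes whose products bind BCL2 proteins or control their turnover, 1 was called higher in A549, and 1 higher and 1 lower in NCI-H596. Of all genes, 17.5% were called higher and 20.1% lower in A549, and 21.3% and 25.3% in NCI-H596. HUWE1, a ubiquitin ligase of MCL1, rose by 0.44 ± 0.15 on the log2 scale in A549 (adjusted p = 0.030). In NCI-H596 FBXW7, another ubiquitin ligase of MCL1, fell by 0.85 ± 0.07 (adjusted p = 1.4e-07), and DYNLL1, the dynein light chain that binds BIM, rose by 0.28 ± 0.10 (adjusted p = 0.029). The 12 h libraries of this line held 150 and 203 CPM of DYNLL1, on either side of the 166 and 168 at 0 h. FBXW7 went from 101 and 99.7 CPM at 0 h to between 51.4 and 59.8 in the treated NCI-H596 libraries, and its response was the only 1 of the 9 called for a difference between the lines (adjusted p = 0.00015), against 37.6% of all genes.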

How the data were processed

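PolyA RNA libraries were made with an Illumina TruSeq kit. The submitters' processing notes list STAR 2.5.0, RSEM 1.3.2 and hg38. The authors deposited raw counts, which are whole numbers for each gene and library with no normalization. The study's methods name adapter trimming and alignment with STAR to the Ensembl hg38 assembly. The role of RSEM, the version of the annotation and whether counting was by strand are not given in the sources used here. Depth limits the precision of genes with few counts. Columns were matched to titles, with 0 columns left over.

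The fits used edgeR 4.0.16 and limma 3.58.1 under R 4.3.3, with filterByExpr (minimum count 10, minimum total 15), TMM factors and a robust quasi-likelihood model of 1 coefficient per condition over 16 libraries. Benjamini-Hochberg adjustment covered 15067 genes. CPM rest on TMM-scaled library sizes. Lengths and exons were taken from GENCODE on hg38, and promoters from RefSeq. All 10 members are named, and of each other list the 2 genes with the largest mean response among those called in each line. The members and lists were chosen with earlier results of these data known. The fits were tested on simulated data. The alternatives scaled by DESeq2's size factors, replaced the test by DESeq2 1.42.0, dropped the filter or asked for 10 counts in every library, added the replicate number as a block, took each line alone, left out each library, used the union of exons as length, or lowered the prior count of log2 CPM from 2 to 0.5. Of single genes, they covered the 10 members only, so the stability of the other named genes was not checked. P-values rest on the spread between the 2 replicates of a condition, estimated over all 8 conditions together with 8 residual degrees of freedom. They do not measure the spread in the compared conditions alone. Figures were drawn in Python with matplotlib.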

Additional observations from a re-analysis of the deposited data

Results flagged for a closer look

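The response of 5 members differed between the lines in edgeR's F test of the difference over 3, 6 and 12 h. BCL2L1 (adjusted p = 6.63e-07) was below 0 h in 6 of 6 treated A549 libraries and above it in 6 of 6 in NCI-H596. BMF (adjusted p = 2.73e-06) was below both 0 h libraries in 6 of 6 treated NCI-H596 libraries. BCL2L11 (adjusted p = 0.000137) and BBC3 (adjusted p = 0.000243) were below 0 h in 6 of 6 treated NCI-H596 libraries as well. PMAIP1 (adjusted p = 0.0261) was above 0 h in 6 of 6 treated libraries of each line, with a mean difference between the responses of -0.01 ± 0.14 on the log2 scale. The difference held for BCL2L1, BCL2L11 and BBC3 in 21 of 21 alternatives and for BMF in 20 of 20. For PMAIP1 it held in 10 of 21, with adjusted p up to 0.129. Among the members without this call in the main fit, the difference was called in 4 of 21 alternatives for BAK1 and for BAX. It was called in 2 of 21 for BIK, and in 0 of 21 for BCL2 and for MCL1. MET status and line cannot be told apart in any of these.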

How the results depend on the processing

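Of 59 log2 fold changes of members that were called, 40 were called in every alternative run for them and none changed sign. The rest lost the call in at least 1 alternative, mostly when a library was left out. DESeq2, DESeq2's size factors, no filter and the filter of 10 counts in every library each lost 1 call, and fits of a line alone lost 3. The replicate number as a block changed no call of a member. Deviations of replicate 1 from the condition means correlated between -0.159 and 0.111 over 28 pairs of conditions. No strong shift was thus shared by libraries of the same number, but this check cannot decide whether the numbers pair the samples. With the replicate block 5 members were called for a difference between the lines, as without it. With each line fitted alone, 5 members were called in A549 at 3 h. With at least 10 counts in every library, where BMF was not tested, 1 member was called for a difference at 3 h and 1 from 3 h to 6 h in A549. With no filter on low counts, 6 were called in the additive model. The value of BAK1 in A549, near 0, changed sign at 3 h without a filter (0.00417) and with the line alone (0.00094), and at 6 h with DESeq2's size factors (0.0104), DESeq2 (0.0103), no filter (0.0074), the strict filter (0.0162) and the line alone (0.0166).

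With 1 library left out, the members called ranged from 2 to 5 in A549 at 3 h, 2 to 4 at 6 h, 4 to 7 in NCI-H596 at 3 h, 2 to 4 for the difference at 3 h, 4 to 7 at 6 h and 4 to 8 over all times, and 1 to 3 in the additive model. From 3 h to 6 h they ranged from 0 to 2 in A549 and 1 to 5 in NCI-H596, and from 6 h to 12 h from 1 to 4 and 2 to 5. The highest counts, 5 in A549 at 3 h and 8 for the difference, came without a 12 h NCI-H596 library. Signs changed, with no call at stake in the main values, for BAK1 in A549 at 3 h (-0.091 to 0.082) and 6 h (-0.081 to 0.090) and in NCI-H596 at 12 h (-0.19 to 0.42), for BAX in A549 at 3 h (-0.21 to 0.20), 6 h (-0.37 to 0.026) and 12 h (-0.25 to 0.13), for BBC3 in A549 at 3 h (-0.23 to 0.14), 6 h (-0.25 to 0.11) and 12 h (-0.071 to 0.26), for BCL2 in A549 at 12 h (-0.29 to 0.0092) and for BIK in NCI-H596 at 3 h (-0.49 to 0.73). The cause was not tested. The counts of BCL2 (12 to 24 in A549), BIK and BMF limit what could be detected.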

Other observations

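The genes whose pattern was most like that of each member were found by Pearson correlation of log2 CPM, each line centred on its own mean, over the 8 condition means, among 8570 or 8571 genes whose log2 CPM averaged 3 or more in both lines. The values are descriptions, since the highest of so many correlations over 8 points is high for any gene and the points share libraries. The rise of MCL1 in both lines was followed most closely by USP36 (0.988), a nucleolar deubiquitinase, and LRRC8A (0.982), a subunit of the volume-regulated anion channel. BCL2L1 was most like AFAP1 (0.981), an actin filament protein, and AP1AR (0.977). BCL2L11 was most like PDCD4 (0.990), an inhibitor of translation, and ISCU (0.989), the scaffold of iron-sulphur cluster assembly. PMAIP1 was most like CLTB (0.998), a clathrin light chain, and RBM4 (0.995), and BBC3 like HEG1 and the guidance receptor ROBO1 (0.988 each). BMF was most like SMC4 (0.969), a condensin subunit, and FAM172A (0.967), and with a prior count of 0.5 the first was PIDD1 (0.973). BAK1 was most like EMP1 (0.986) and the sphingosine phosphate receptor S1PR3 (0.984), BAX like ALG5 (0.976) and CNOT11 (0.976), BCL2 like TRAPPC3 (0.975) and the adaptor FADD (0.953), and BIK like NBEA (0.996) and SIPA1L1 (0.966). For BCL2 and BIK, with few counts, the pattern itself is imprecise.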
